A study of Danio rerio with 23 samples.

Results

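The genes described here are chaperones of the cytosol, the mitochondria and the endoplasmic reticulum (ER), chosen as a list of 10 symbols that were matched without regard to letter case to a gene name table. Of the 10 symbols, 9 matched, giving 10 Ensembl identifiers of the 34326 counted in each library. They are *hsp90ab1* (ENSDARG00000029150), *hsp90aa1.1* (ENSDARG00000010478), *hspa8* (2 identifiers, ENSDARG00000068992 and ENSDARG00000037403), *dnajb1b* (ENSDARG00000041394), *hspd1* (ENSDARG00000056160), *hspe1* (ENSDARG00000056167), *hspa5* (ENSDARG00000103846), *hsp90b1* (ENSDARG00000003570) and *pdia4* (ENSDARG00000018491). The symbol *hspa4a* was not in the table, which lists 2 identifiers as HSPA4 (ENSDARG00000018989 and ENSDARG00000004754) without saying which of them is *hspa4a*. Values for both are given by identifier and are not counted among the members.

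Molecular chaperones bind unfolded or newly made proteins and help them reach and keep their folded form, by cycles of ATP binding and hydrolysis or, in the ER, by forming and exchanging disulfide bonds. Constitutive members of the HSP90 and HSP70 families serve protein synthesis and signalling in every cell, and others are induced by heat or other proteotoxic stress through the heat shock factors. ER chaperones are induced by the unfolded protein response and are abundant in secretory cells such as the acinar cells of the exocrine pancreas.

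RNA was sequenced from whole intestines of single adult zebrafish, in 23 libraries. The groups were fish without food for 3 days (3dpS, 4 libraries) against continuously fed controls (3 libraries), fish without food for 21 days (21dpS, 4 libraries) against fed controls (4 libraries), and fish given food again for 3 days after 21 days of starvation (3dpR, 4 libraries) against fed controls (4 libraries). All fish came from 1 breeding pair, no genotype or transgene is labelled, and the strain is not given in the sources used here. The labels give the age as 81 days post-fertilization for the libraries of all 3 time points. By the methods the fish were born on the same day and sampled along 1 time course, so this label cannot hold for every group. Fed groups of different time points therefore differ in age. Food was given or withheld per tank, with 2 tanks per diet, so diet and tank cannot be fully told apart, and the p-values take single fish as the replicates.

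The libraries held 500205 to 1236436 reads counted on genes (median 596487). Levels are given as CPM, the reads of a gene relative to all counted reads of its library, scaled by TMM factors that set libraries of different composition on 1 scale. In a single library a count of 3, below which a gene is treated as undetected, is worth 2.43 to 6.00 CPM. They are not divided by gene length, so levels are compared between groups for 1 gene and not between genes. In whole intestine, fewer cells of a type and less RNA per cell cannot be told apart. Enterocyte markers were counted in every library and summed to 2479 to 4398 CPM. Exocrine pancreas markers were also counted in every group, and 0 of their 12 genes was at 0 in any group. Their sum was highest in the 3dpS fed library of replicate 1 (6763 CPM, against 877 and 1691 CPM in the other 3dpS fed libraries), which also held the highest sum of erythrocyte markers (31607 CPM). Of the 3 erythrocyte marker genes, 2 had 0 reads in the whole 3dpS fed group. The 3dpS values of the tested members and of most of the other chaperones named are also given without that library. It is the only 3dpS fed library with tank number 1, and the other 3dpS fed libraries both have tank number 2. Values without it therefore compare starved fish of both tank numbers with fed fish of a single tank number. They are not a better estimate of the diet effect.

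The strand option of the counting is not stated. MT-ND6, the mitochondrial protein gene encoded on the strand opposite to the others, averaged 16493 reads per library, against 3915 reads for the next mitochondrial protein gene (MT-CO1), and *gapdh* averaged 42.0 reads. Which strand the counted reads came from was not tested, so the values are reads assigned to each gene. In the RefSeq table (assembly GRCz12tu, not the build of the counts), no gene overlapped *hsp90ab1*, whereas *glt8d2* overlapped *hsp90b1* and *adgre10* overlapped *dnajb1b*. These neighbours averaged 66.4 reads (*glt8d2*) and 319 reads (*adgre10*) per library. In the same table *rabepk* and si:ch73-55i23.1 overlapped *hspa5*, and 5 genes named by locus number alone overlapped *hspa8*. The gene si:ch73-55i23.1 held 2 reads in all, and the others were not counted separately here. Reads of these members cannot be told apart from those of a neighbour where the genes overlap.

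Among the cytosolic chaperones, *hsp90ab1*, the constitutive HSP90 that completes the folding of kinases and steroid hormone receptors, was higher in every 3dpS starved fish than in any 3dpS fed fish. It had 5528, 4481, 6157 and 6088 CPM in starved fish, against 3578, 2234 and 2621 CPM in fed fish. The mean was 5564 ± 775 CPM in starved fish (SD, n = 4) and 2811 ± 692 CPM in fed fish (SD, n = 3), a fitted fold of 1.99 and a log2 fold change of 0.99 (SE 0.24). The groups did not overlap, as was the case, with the starved fish higher, for 7.26% of the 3953 genes tested. The p-value of 0.0011 ranked 51 among them and did not pass the threshold of 0.05 after Benjamini-Hochberg adjustment in edgeR's quasi-likelihood test (adjusted p = 0.082).

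The value lay close to the threshold, and the call depended on the fit. DESeq2 called *hsp90ab1* higher in 3dpS starved fish (log2 fold change 0.99, adjusted p = 0.0056), and edgeR called it with all 23 libraries in 1 fit (0.98, adjusted p = 0.018) and with no filter on low counts (0.98, adjusted p = 0.012). The shares of all genes called were 6.32% by DESeq2, 1.49% in the fit of all libraries and 0.907% with no filter. Without the 3dpS fed library of replicate 1, the edgeR log2 fold change was 1.21 (adjusted p = 0.026). With each of the other 6 libraries left out in turn it was not called, at log2 fold changes of 0.84 to 1.098 and edgeR adjusted p-values of 0.063 to 0.407.

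At 21dpS the starved and the fed fish overlapped. *hsp90ab1* had 4401, 4515, 5561 and 5078 CPM in starved fish, against 4370, 5208, 3437 and 4006 CPM in fed fish. The log2 fold change was 0.14 (SE 0.22, edgeR adjusted p = 0.76). At 3dpR it had 2575, 3587, 2709 and 2665 CPM in refed fish, against 3365, 4603, 2941 and 3462 CPM in fed fish. Here 3 of the 4 refed libraries lay below all fed libraries and the refed library of replicate 2 lay among them, with a log2 fold change of -0.38 (SE 0.20, edgeR adjusted p = 0.66).

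**Figure D1:**
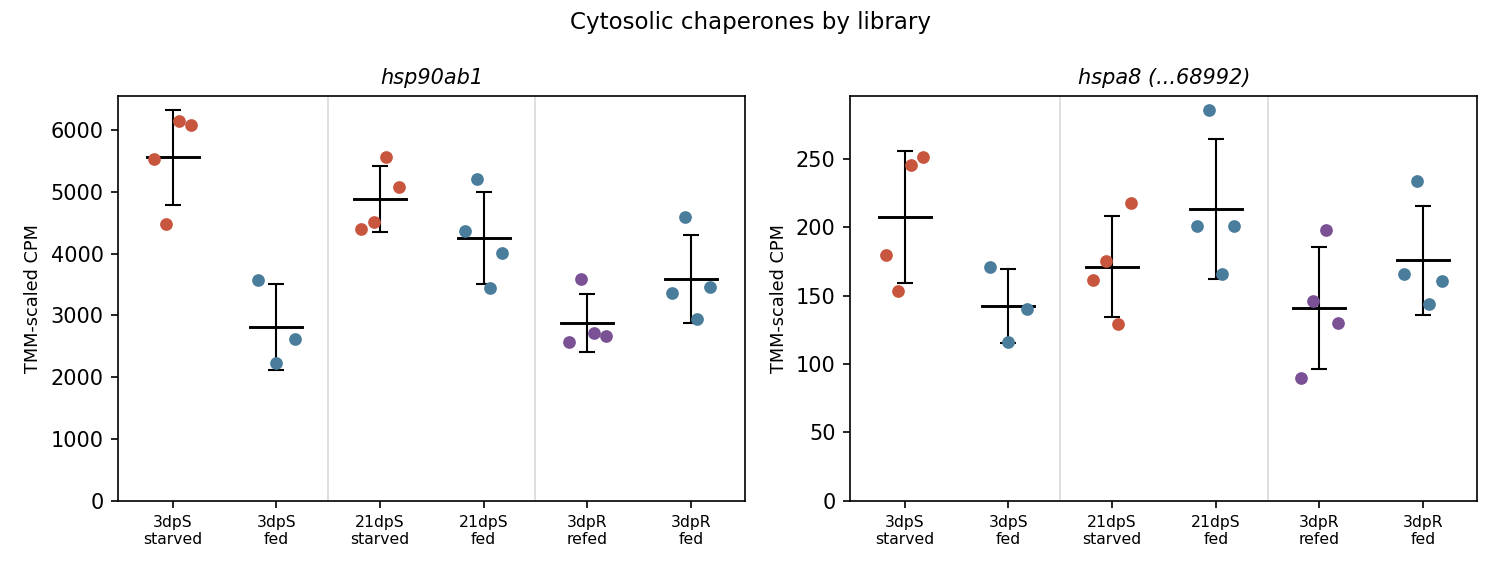
TMM-scaled CPM (vertical axes) of *hsp90ab1* and of *hspa8* (ENSDARG00000068992) in each of the 23 libraries by group, where points are single fish, horizontal bars group means and whiskers 1 SD. The 3dpS starved libraries of *hsp90ab1* sit between 4481 and 6157 CPM, all above the 3dpS fed libraries, whereas the groups of *hspa8* overlap at every time point.

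The fed controls were not at 1 level for *hsp90ab1*. It averaged 4255 CPM in 21dpS fed fish, against 2811 CPM in 3dpS fed fish, a log2 fold change of 0.60 (SE 0.26) whose unadjusted p of 0.038 did not pass adjustment in edgeR (adjusted p = 0.34). Of the 3 lowest values in the 23 libraries, 2 belonged to 3dpS fed fish (2234 and 2621 CPM) and 1 to a refed fish (2575 CPM). With the mean of the 3 fed groups as the reference, a choice made after seeing the data, edgeR called *hsp90ab1* higher in 3dpS starved fish (log2 fold change 0.67, adjusted p = 0.022) and in 21dpS starved fish (0.48, adjusted p = 0.041). That reference includes fed fish of other ages, and called 2.36% of all genes at 3dpS and 15% at 21dpS. The 21dpS effect minus the 3dpS effect, tested over all 23 libraries, was -0.78 on the log2 scale (SE 0.29, unadjusted p = 0.012) and did not pass adjustment in edgeR (adjusted p = 0.46). Over all genes this difference was called for 0 of 4628 by edgeR and 1 by DESeq2 (0.00454%), with 8.64% at an unadjusted p under 0.05.

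The paralogue *hsp90aa1.1*, known in zebrafish for its part in folding skeletal muscle myosin, had 0 reads in all 23 libraries. Over the 14366621 reads counted in them this allows a level of up to 0.209 CPM (3 reads), by counting error alone. In the RefSeq table it lies beside its near-identical copy *hsp90aa1.2*, and how reads that match both were treated is not given in the sources used here.

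*hspa8* encodes the constitutive cytosolic HSP70, which binds nascent chains and hands clients on to HSP90. At 3dpS the identifier ENSDARG00000068992 had 179.9, 154, 245 and 252 CPM in starved fish, against 171, 116 and 140.0 CPM in fed fish. The highest fed library lay above the lowest starved one, and the log2 fold change of 0.55 (SE 0.28) did not pass the test (unadjusted p = 0.070, edgeR adjusted p = 0.39). Without the fed library of replicate 1 it was 0.71 (edgeR adjusted p = 0.24). At 21dpS it had 161, 176, 129 and 218 CPM in starved fish, against 201, 286, 166 and 201 CPM in fed fish. Most starved libraries were lower here but the groups overlapped, with a log2 fold change of -0.38 (SE 0.26, edgeR adjusted p = 0.42). At 3dpR it had 89.96, 146, 198 and 130.3 CPM in refed fish, against 166, 234, 144 and 160.4 CPM in fed fish (log2 fold change -0.36, SE 0.28, edgeR adjusted p = 0.75). The 21dpS effect minus the 3dpS effect was -0.86 (SE 0.38, unadjusted p = 0.030, edgeR adjusted p = 0.53). The other *hspa8* identifier, ENSDARG00000037403, held 9 reads in all, with at most 2 in a library, and was not tested.

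HSPA4 proteins are HSP110-type chaperones, which recharge HSP70 by exchanging its nucleotide. At 21dpS ENSDARG00000018989 had 50.7, 53.9, 47.8 and 41.9 CPM in starved fish, against 80.3, 90.2, 56.6 and 56.9 CPM in fed fish. All starved libraries were below all fed ones, as for 5.74% of the 3203 genes tested, and the log2 fold change of -0.61 (SE 0.28, unadjusted p = 0.045) did not pass adjustment in edgeR (adjusted p = 0.23). Its groups overlapped at 3dpS (log2 fold change 0.25, edgeR adjusted p = 0.75, and 0.23 without the fed library of replicate 1) and at 3dpR (-0.49, edgeR adjusted p = 0.73). The other identifier, ENSDARG00000004754, had 12.4, 4.39, 35.4 and 28.3 CPM in 3dpS starved fish, against 6.70, 4.31 and 0 CPM in 3dpS fed fish. With 0 to 4 reads in each of the fed libraries it was left out by the filter on low counts at 3dpS, and with no filter edgeR called it (log2 fold change 2.36, adjusted p = 0.019), a fold change that rests on 7 fed reads. At 21dpS the same identifier had 12.7 to 30.3 CPM in starved fish and 15.4 to 23.4 CPM in fed fish (log2 fold change 0.33, edgeR adjusted p = 0.64).

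*dnajb1b* encodes an HSP40 co-chaperone that stimulates the ATPase of HSP70. It had 9, 14, 7 and 2 reads in 3dpS starved fish, against 4, 3 and 3 reads in 3dpS fed fish. Its 23 libraries held 1 to 14 reads, 12 of them at or below 3, and it was not tested at any time point. With no filter its log2 fold change at 3dpS was 0.75 (SE 0.67, edgeR adjusted p = 0.75).

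The mitochondrial pair, *hspd1* (HSP60, the barrel in which matrix proteins fold) and *hspe1* (HSP10, its lid), lie next to each other in the RefSeq table. *hspd1* had 4, 12, 10 and 4 reads in 3dpS starved fish, against 5, 3 and 3 reads in fed fish. At 21dpS it had 5, 5, 10 and 5 reads in starved fish, against 3, 8, 1 and 3 reads in fed fish. At 3dpR it had 3, 4, 2 and 1 reads in refed fish, against 11, 5, 4 and 5 reads in fed fish. The refed libraries overlapped the fed ones at 4 reads, and at these counts no difference was detectable. *hspe1* had 0 to 16 reads per library, 13 libraries at or below 3, and overlapping ranges of 1 to 8 reads in 21dpS starved fish and exactly 2 reads in each 21dpS fed library. Neither gene passed the filter on low counts in any comparison.

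**Figure D2:**
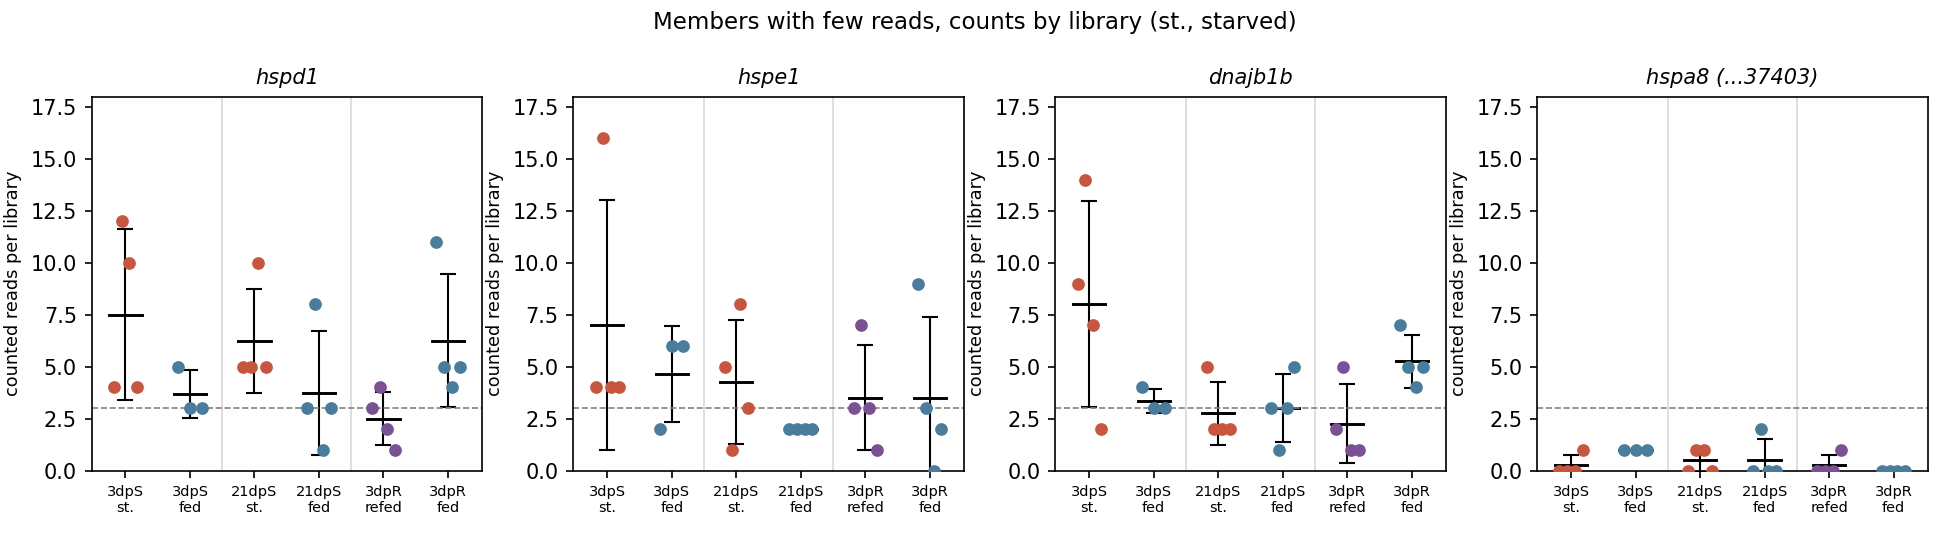
Counted reads per library (vertical axes) of *hspd1*, *hspe1*, *dnajb1b* and the second *hspa8* identifier by group, with means and 1 SD and the smallest detectable count of 3 reads as a dashed line. Most libraries lie within a few reads of that line, and *dnajb1b* reaches 14 reads in 1 of the 3dpS starved libraries.

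In the ER, *hspa5* (BiP, the HSP70 of the ER lumen and a sensor partner of the unfolded protein response) lay between 3.22 CPM, which is 2 reads and under the smallest detectable count, and 66.1 CPM in the 23 libraries. At 3dpS it had 21.7, 21.9, 17.1 and 11.9 CPM in starved fish, against 30.1, 5.74 and 3.22 CPM in fed fish. The fed library of replicate 1 was above all starved libraries and the other fed libraries below all of them, and the log2 fold change was 0.52 (SE 0.61, edgeR adjusted p = 0.76). Without that library it was 1.99 (edgeR adjusted p = 0.092). With each of the 7 libraries left out in turn it lay between 0.049 and 1.99. Pancreas markers summed to 1472 to 3463 CPM in 3dpS starved fish, against 877 to 6763 CPM in fed fish, and erythrocyte markers to 4575 to 12476 CPM, against 2043 to 31607 CPM. The part of either in these values was not tested.

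At 21dpS *hspa5* had 19.98, 66.1, 17.5 and 33.2 CPM in starved fish, against 17.0, 20.4, 50.8 and 24.7 CPM in fed fish, and each group held 1 library well above its others. The log2 fold change was 0.22 (SE 0.47, edgeR adjusted p = 0.84), and without the starved library of replicate 2 it was -0.28. At 3dpR *hspa5* had 22.5, 40.2, 18.2 and 10.3 CPM in refed fish, against 16.3, 21.9, 28.4 and 22.9 CPM in fed fish (log2 fold change -0.02, SE 0.41, edgeR adjusted p = 0.99).

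*pdia4*, a protein disulfide isomerase of the ER, followed a like order of libraries. At 3dpS it had 32.6, 61.4, 40.3 and 22.3 CPM in starved fish, against 55.3, 14.4 and 6.43 CPM in fed fish, and the fed library of replicate 1 stood among the starved ones. The log2 fold change was 0.67 (SE 0.62, edgeR adjusted p = 0.68), and 1.92 without that library (edgeR adjusted p = 0.078). With each of the 7 libraries left out in turn, *pdia4* lay between 0.20 and 1.92. At 21dpS it had 26.1, 74.8, 30.3 and 33.2 CPM in starved fish, against 40.2, 28.9, 74.2 and 51.2 CPM in fed fish (log2 fold change -0.30, SE 0.39, edgeR adjusted p = 0.72). At 3dpR it had 56.2, 67.7, 27.3 and 26.9 CPM in refed fish, against 54.7, 42.3, 34.0 and 64.6 CPM in fed fish, and 2 refed libraries lay below all fed ones and 1 above all (log2 fold change -0.21, SE 0.35, edgeR adjusted p = 0.89).

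*hsp90b1* encodes GRP94, the HSP90 of the ER. At 3dpS it had 93.0, 209, 98.9 and 95.3 CPM in starved fish, against 164, 87.6 and 62.7 CPM in fed fish. The starved library of replicate 2 stood far above the other starved libraries, and the log2 fold change was 0.26 (SE 0.39, edgeR adjusted p = 0.82). It was 0.74 without the fed library of replicate 1 (edgeR adjusted p = 0.35) and -0.11 without the starved library of replicate 2. At 21dpS it had 119.9, 247, 138 and 79.5 CPM in starved fish, against 137, 104, 117 and 133 CPM in fed fish (log2 fold change 0.19, SE 0.32, edgeR adjusted p = 0.79). The 21dpS starved library of replicate 2, highest in all 3 ER members at that time, held a pancreas marker sum of 631 CPM, against 327 to 476 CPM in the other 21dpS starved libraries. The 21dpS fed library of replicate 2 held the highest pancreas marker sum at that time (1318 CPM) and the lowest *pdia4* and *hsp90b1* of its group (28.9 and 104 CPM). The part of the markers in these values was not tested. At 3dpR *hsp90b1* had 178, 169, 175 and 124 CPM in refed fish, against 155, 213, 104 and 198 CPM in fed fish (log2 fold change -0.11, SE 0.26, edgeR adjusted p = 0.92).

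**Figure D3:**
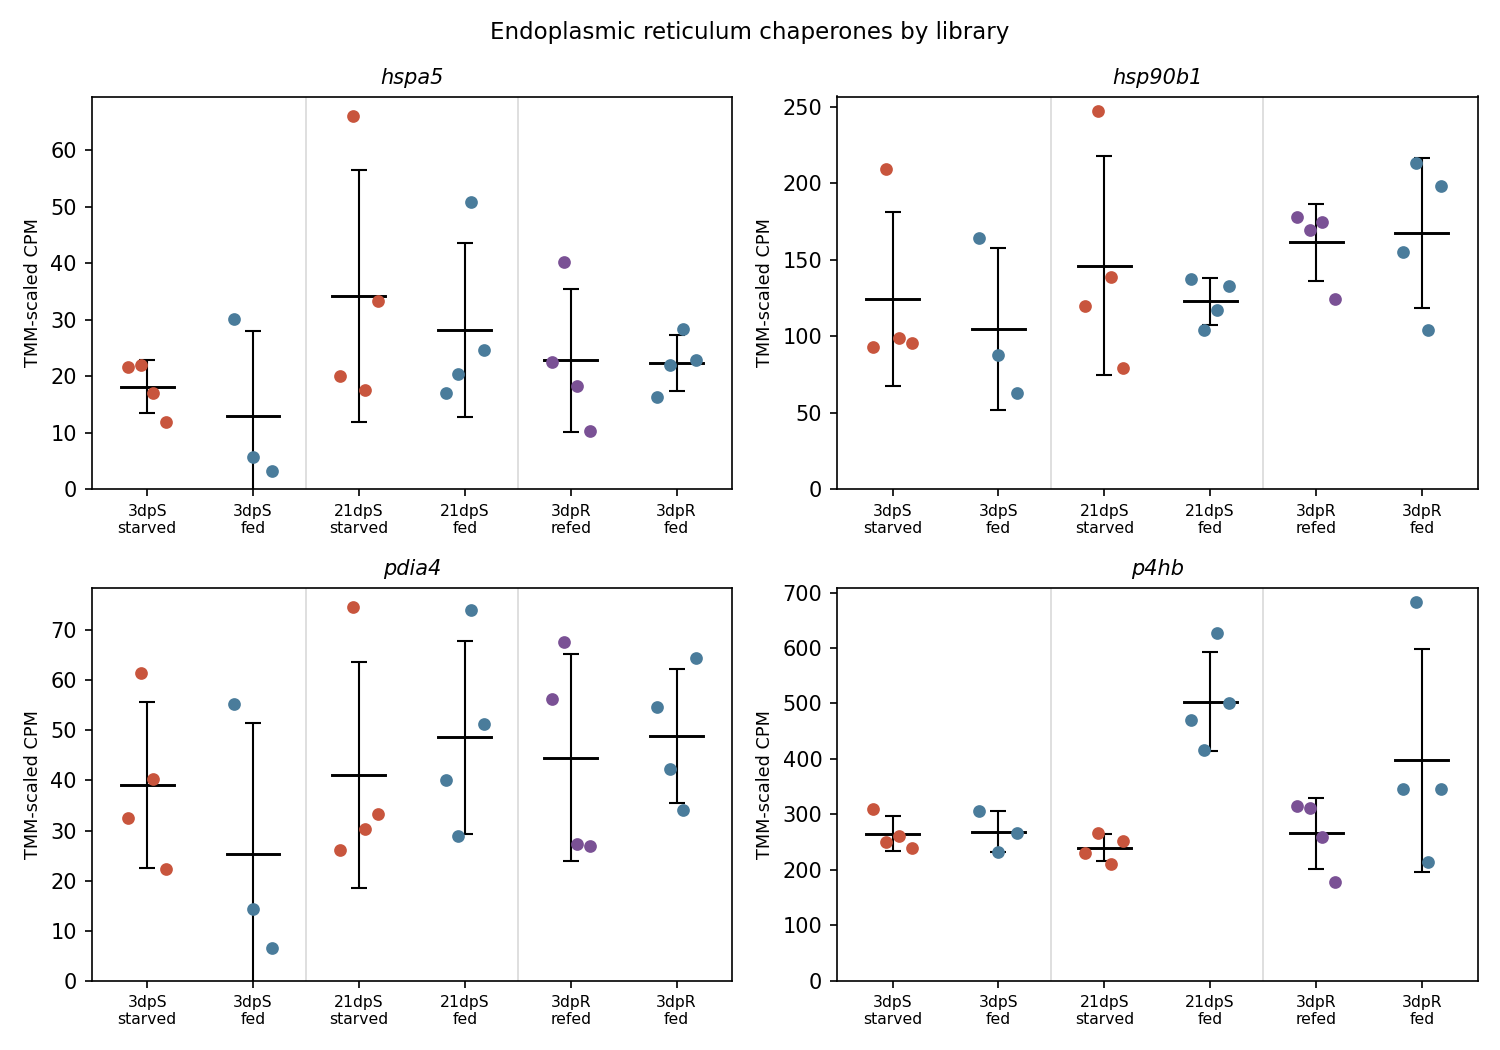
TMM-scaled CPM (vertical axes) of *hspa5*, *hsp90b1*, *pdia4* and *p4hb* in each library by group, where points are single fish, horizontal bars group means and whiskers 1 SD (drawn down to 0 at most). Single libraries reach 66.1 CPM for *hspa5*, 247 CPM for *hsp90b1* and 74.8 CPM for *pdia4* in 21dpS starved fish, and for *p4hb* the 21dpS fed libraries all lie above the 21dpS starved ones.

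Of the 10 member identifiers, 5 passed the filter on low counts in each comparison with diet (*hsp90ab1*, *hspa8* ENSDARG00000068992, *hspa5*, *hsp90b1* and *pdia4*). At 3dpS edgeR called 0 of the 5, against 0.531% of all genes tested, with 1 at an unadjusted p under 0.05 (*hsp90ab1*, against 15% of all genes), and DESeq2 called 1 of the 3 to which it gave an adjusted p-value (against 6.32%). At 21dpS edgeR called 0 of the 5, against 2.81% of all genes, with 0 at an unadjusted p under 0.05 (20.9% of all genes), and DESeq2 called 0 of 5 (7.55%). At 3dpR edgeR called 0 of the 5, against 0.0349% of all genes, with 0 at an unadjusted p under 0.05 (7.51% of all genes), and DESeq2 called 0 of 6 (0.213%).

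The log2 fold changes of the 5 tested members were 0.26 to 0.99 at 3dpS (median 0.55, against 0.01 for all genes tested). Without the fed library of replicate 1 the median of the same 5 was 1.21 (0.05 for all genes), and edgeR called 1 of them (*hsp90ab1*, against 2.66% of all genes). The other chaperones on the lists described here, 39 tested at 3dpS without the members and the HSPA4 pair, had a median of 0.0048, with 20 positive and 19 negative values, and without that library 40 were tested with a median of 0.23. At 21dpS the log2 fold changes of the 5 members were -0.38 to 0.22, with a median of 0.14 (all genes -0.02). At 3dpR those of the same 5 members were -0.38 to -0.02, with a median of -0.21 (all genes -0.02). Among the fed controls, the same 5 genes had log2 fold changes of 0.24 to 1.12 in 21dpS fed against 3dpS fed fish (median 0.60), a comparison that shares the 3dpS fed libraries with the first. Without the 3dpS fed library of replicate 1 that median was 0.84. edgeR called 0 of the 5 there, against 0.0588% of all genes, with 1 at an unadjusted p under 0.05 (*hsp90ab1*, against 13.8% of all genes), and DESeq2 called 0 of 4 (2.69%). In 3dpR fed against 3dpS fed fish, which again shares the 3dpS fed libraries, the same 5 genes were at 0.32 to 0.97 (median 0.69). In that comparison edgeR called 0 of the 5 and 0 of the 3482 genes tested.

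**Figure D4:**
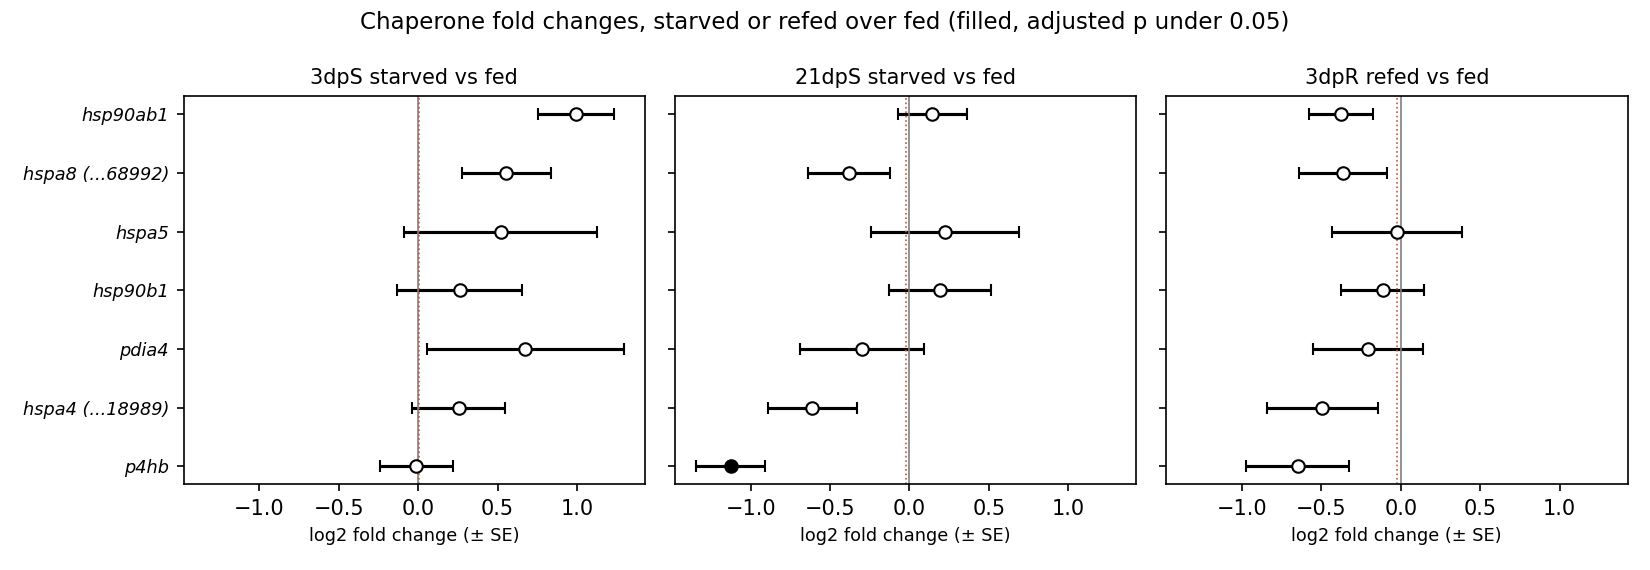
Log2 fold change (horizontal axes, ± SE) of the 5 tested members, of HSPA4 ENSDARG00000018989 and of *p4hb* in starved or refed over fed fish at the 3 time points, with the median of all genes tested as a dotted line and filled points for an edgeR adjusted p under 0.05. The only filled point among the genes drawn is *p4hb* at 21dpS, at -1.13, and *hsp90ab1* at 3dpS stands at 0.99.

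Across all 23 libraries, the genes whose log2 CPM was most like that of *hsp90ab1* among 4628 genes were *ddx21* (Pearson r 0.94), *eef1a1l1* (0.93), *rps9* (0.92), *rpl7a* (0.92) and *rpl5* ENSDARG00000015862 (0.91). *ddx21* encodes an RNA helicase of the nucleolus, *eef1a1l1* a translation elongation factor and the others ribosomal proteins. These correlations describe 23 libraries that share groups, tanks and preparation, and have no p-value. At 3dpS *ddx21* was called higher in starved fish (log2 fold change 1.74, SE 0.30, edgeR adjusted p = 0.028, against 0.531% of all genes called). *rps9* was at 1.26 (SE 0.30, edgeR adjusted p = 0.075), and 3dpS values of the other genes picked are not given. The genes were picked on libraries that include those of 3dpS. A 3dpS change in the direction of *hsp90ab1* is therefore in part fixed by the choice and is no separate result. Of the other chaperones described, HSPA4 ENSDARG00000004754 ranked 78 (r 0.75) and *hspa8* ENSDARG00000068992 ranked 142 (r 0.68), whereas *hspa5* (r 0.29), HSPA4 ENSDARG00000018989 (r 0.27), *pdia4* (r 0.19) and *hsp90b1* (r -0.03) ranked between 1086 and 2560.

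The genes most like *hspa5* were *pdia4* (r 0.84), *romo1* (0.79), *hyou1* (0.79), ENSDARG00000097561 (0.78) and *garem1* (0.75). *hyou1* encodes the HSP110-type partner of *hspa5* in the ER, and *romo1* a protein of the mitochondrial inner membrane. *hsp90b1* ranked 105 (r 0.53). *hspa5* averaged 14.4 reads per library, so a part of its variation between libraries is counting error.

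Other genes of the protein folding machinery were described by lists of 135 identifiers in all, the members and the HSPA4 pair included. Among the HSP90 proteins and their co-chaperones, 0 of the 6 genes tested at 3dpS were called by edgeR, against 0.531% of all genes. At an unadjusted p under 0.05 there were 2 (15% of all genes), and the median log2 fold change was 0.71. DESeq2 gave an adjusted p-value to 4 genes of the list and called *hsp90ab1* alone (6.32% of all genes). Without the fed library of replicate 1 the median was 0.89, and edgeR called *hsp90ab1* and *fkbp5*, in a fit that called 2.66% of all genes. *fkbp5*, another immunophilin that binds HSP90 and named after its values were seen, was then at 2.66 (SE 0.36, edgeR adjusted p = 0.0094) and at 0.75 with that library (SE 0.86, edgeR adjusted p = 0.77). *fkbp4*, an immunophilin that binds HSP90 in steroid receptor complexes, had 21.7, 17.6, 33.0 and 19.4 CPM in 3dpS starved fish, against 18.4, 5.74 and 4.83 CPM in fed fish. Its lowest starved value lay just below the highest fed one, that of replicate 1, with a log2 fold change of 1.26 (SE 0.50, edgeR adjusted p = 0.26). It was 2.09 without that library (edgeR adjusted p = 0.062), and between 0.93 and 2.09 with each of the 7 libraries left out in turn. Of the chaperonin CCT and prefoldin genes, which fold actin and tubulin, 5 were tested at 3dpS, all of them CCT subunits. Their median was 0.48 (0.56 without the fed library of replicate 1). Of these, 0 were called by edgeR (0.531% of all genes) and 0 had an unadjusted p under 0.05 (15%). DESeq2 gave an adjusted p-value to only 3 genes of this list and called 0 (6.32%). *cct7*, a subunit of that ring, had 66.7, 54.1, 96.5 and 78.95 CPM in 3dpS starved fish, against 62.0, 40.2 and 38.6 CPM in fed fish (log2 fold change 0.67, SE 0.32, edgeR adjusted p = 0.36, and 0.92 without that library). The cytosolic HSP70, HSP110 and HSP40 list had 9 genes tested at 3dpS with a median of 0.25 (10 and 0.29 without that library). With all libraries, 0 were called by edgeR (0.531% of all genes) and 0 had an unadjusted p under 0.05 (15%). DESeq2 gave an adjusted p-value to only 4 genes of that list and called 0 (6.32%).

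Of the 15 genes of the ER list tested at 21dpS, edgeR called 1 lower and 0 higher, against 1.65% of all genes called lower. The called gene was *p4hb*, a protein disulfide isomerase and the beta subunit of prolyl 4-hydroxylase. It had 231, 266, 210.1 and 251 CPM in 21dpS starved fish, against 469.5, 415, 627 and 501 CPM in fed fish, with no overlap, as for 5.74% of the 3203 genes tested with the starved fish lower. The gene was named because it was called, so the lack of overlap is no separate result. The mean was 239.5 ± 24.4 CPM in starved fish and 503 ± 89.6 CPM in fed fish (SD, n = 4 each), a log2 fold change of -1.13 (SE 0.22, edgeR adjusted p = 0.016). DESeq2 called it too (adjusted p = 0.00022). Leaving out 1 library at a time kept the call in 7 of 8 edgeR fits, and without the starved library of replicate 4 the adjusted p was 0.056.

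The starved fish at 21dpS were near the level of both 3dpS groups for *p4hb*, which had 265 CPM on average in 3dpS starved fish and 269 CPM in 3dpS fed fish (log2 fold change -0.01, and 0.098 without the fed library of replicate 1). The 21dpS fed libraries all lay above the 3dpS fed libraries, as for 6% of the 3401 genes tested, with a log2 fold change of 0.91 (SE 0.26) that edgeR did not call (adjusted p = 0.18) and DESeq2 did. The mean of the 3 fed groups as the reference includes fed fish of other ages and called 15% of all genes at 21dpS. Against that reference, *p4hb* at 21dpS was at -0.66 (edgeR adjusted p = 0.044). At 3dpR it had 315, 311, 258 and 178 CPM in refed fish, against 346, 683, 214 and 346 CPM in fed fish (log2 fold change -0.65, SE 0.32, edgeR adjusted p = 0.65). Exocrine pancreas markers summed to 327 to 631 CPM in 21dpS starved fish, against 412 to 1318 CPM in 21dpS fed fish. Of the 6 tested, edgeR called 2 lower, as it did 1 of the 9 enterocyte markers, against 1.65% of all genes. The part of these markers in the *p4hb* result was not tested.

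*ppib*, cyclophilin B of the ER, which acts on collagen and other secreted proteins, had 111, 122, 140.1 and 99.7 CPM in 21dpS starved fish, against 188, 221, 189 and 167 CPM in fed fish. The groups did not overlap, as for the same 5.74% of genes, and the log2 fold change of -0.75 (SE 0.24) did not pass in edgeR (adjusted p = 0.097) and passed narrowly in DESeq2 (adjusted p = 0.0497). At 3dpS it had 132, 109.7, 172 and 136 CPM in starved fish, against 343, 182 and 153 CPM in fed fish (log2 fold change -0.71, SE 0.31, edgeR adjusted p = 0.31), and -0.27 without the fed library of replicate 1. The medians of the ER list were -0.04, -0.10 and -0.11 at 3dpS, 21dpS and 3dpR, against 0.01, -0.02 and -0.02 for all genes tested. At 3dpS the median of the ER list was 0.20 without the fed library of replicate 1.

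Of the mitochondrial chaperones and proteases, 4 were tested at 21dpS, and 0 were called by edgeR (against 2.81% of all genes) or by DESeq2 (7.55%), with 2 at an unadjusted p under 0.05 (20.9%). Those 2, named after their values were seen, were *clpp*, the proteolytic subunit of the matrix protease ClpXP, at a log2 fold change of 1.01 (SE 0.34, edgeR adjusted p = 0.12), and *afg3l2*, a subunit of an inner membrane protease, at -0.76 (edgeR adjusted p = 0.21). On the small heat shock protein list, the only gene with enough reads for a test was ENSDARG00000067777, matched by the symbol *hspb11* alone. It was at -0.47, 0.02 and -0.09 at 3dpS, 21dpS and 3dpR (edgeR adjusted p of 0.57, 0.99 and 0.95). At 3dpS without the fed library of replicate 1 it was at -0.61. Whether this identifier encodes a small heat shock protein was not checked.

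**Figure D5:**
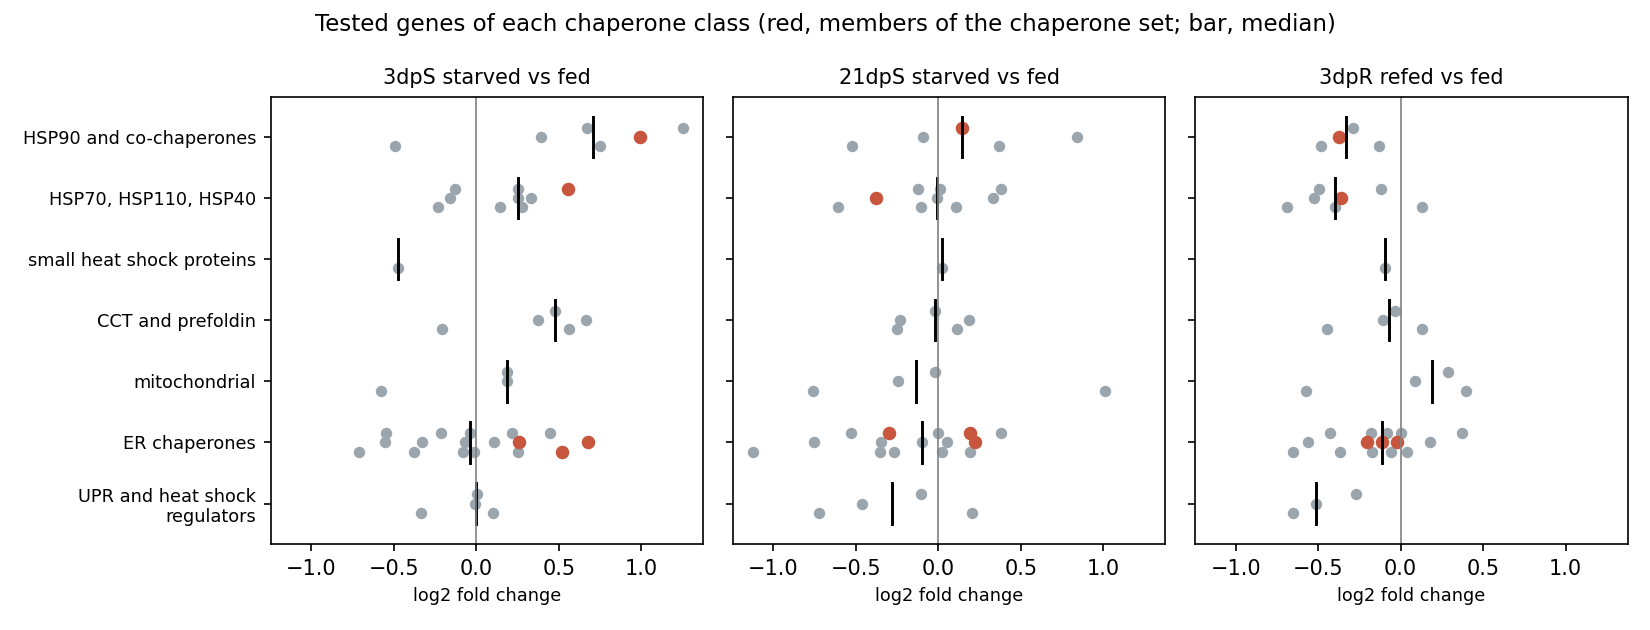
Log2 fold change (horizontal axes) of each tested gene by chaperone class in starved or refed over fed fish, where points are single genes, red points the 5 tested members and bars the class medians. The medians of the HSP90 class are 0.71 at 3dpS, 0.14 at 21dpS and -0.33 at 3dpR, over 6, 5 and 4 tested genes that are not the same at each time, and the 21dpS median is the value of *hsp90ab1* itself. The lowest point of the ER class at 21dpS is *p4hb*.

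At 3dpR no gene of any chaperone list was called by edgeR (0.0349% of all genes) or DESeq2 (0.213%). *xbp1*, the transcription factor spliced in the unfolded protein response, had 54.0, 57.1, 41.8 and 26.9 CPM in refed fish, against 57.7, 70.5, 62.4 and 81.2 CPM in fed fish. All refed libraries were below all fed ones, as for 1.92% of the 2862 genes tested, and the log2 fold change of -0.65 (SE 0.29, unadjusted p = 0.038) did not pass adjustment in edgeR (adjusted p = 0.65). DESeq2 gave it an unadjusted p of 0.095. The gene was named for its small p-value at 3dpR, so the lack of overlap is in part fixed by the choice and is no separate result. *hspa9*, the HSP70 of the mitochondrial matrix, had 40.5, 48.7, 41.8 and 20.7 CPM in refed fish, against 54.7, 62.7, 41.6 and 58.3 CPM in fed fish (log2 fold change -0.58, SE 0.31, edgeR adjusted p = 0.66). Over all chaperone lists together, 38 genes were tested at 3dpR, 9 with a positive and 29 with a negative log2 fold change, and 1 had an unadjusted p under 0.05 (7.51% of all genes). The median was -0.17, against -0.02 for all genes, of which 1373 were positive and 1489 negative. The same lists had 26 positive and 19 negative values at 3dpS (34 and 13 without the fed library of replicate 1) and 18 and 25 at 21dpS. Exocrine pancreas markers summed to 331 to 895 CPM in refed fish, against 926 to 1625 CPM in 3dpR fed fish, with no overlap. The share of 1.92% given above is for single genes and not for such sums. Of the 10 pancreas markers tested at 3dpR, edgeR called 0, against 0.0349% of all genes. The part of these markers in the 3dpR values was not tested.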

How the data were processed

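Whole intestines were sequenced with 50-base single-end reads. Per the labels and the methods, the authors trimmed reads with Trim Galore, aligned them to GRCz10 with STAR and deposited raw counts per Ensembl gene from HTSeq. The counts were not normalized. The tests were run in edgeR 4.0.16 under R 4.3.3 (filterByExpr, TMM factors, robust glmQLFit and glmQLFTest, two-sided) on the libraries of each comparison. P-values were adjusted by Benjamini-Hochberg over all genes tested, with a threshold of 0.05. Log2 CPM values used a prior count of 2. Differences between effects used all 23 libraries.

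Alternatives were DESeq2 1.42.0, RLE factors, no filter, a minimum of 10 counts per library, fits without the 100 genes of highest count, tank number as a block, 1 fit of all libraries, and each library left out. The mean of the 3 fed groups as reference was added after seeing the data.

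The members and lists were chosen with earlier results of these data known. Besides the members, list genes called in a diet comparison were named, or, where none was called, the 3 with the smallest p-values. The 5 genes most like *hsp90ab1* and *hspa5* were named by Pearson r. List symbols were matched as written or, where that failed, without a final a or b, and a symbol with over 2 identifiers was left out. No sequence is shown. The 33 pairs of replicates all differed by more than sampling noise. Intervals of counts cover counting error only. Tank numbers were read from a digit in the library titles, which do not call it a tank. Between fed groups a like number was taken to be the same tank (correlation of deviations 0.07, 0.40 and -0.10). The scripts were tested on simulated data with the same spread for all genes. In these, edgeR recovered 9.78%, 16.5% and 14.3% of 2-fold changes at 3dpS, 21dpS and 3dpR. A gene that was not called is therefore not shown to be unchanged.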

Additional observations from a re-analysis of the deposited data

Results flagged for a closer look

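In groups of 4 libraries, a library was picked out when its gap to the nearest other value took up most of the range of its group. This was applied to 13 genes and 65 gene and group pairs, and chance picks out about 1 in 20 groups. It picked 7. *hsp90ab1* was at 3587 CPM in the 3dpR refed library of replicate 2, above 2575 to 2709 CPM in the other refed fish. *hsp90b1* was at 209 CPM in the 3dpS starved library of replicate 2, the highest of its group, and at 124 CPM in the 3dpR refed library of replicate 4, the lowest of its group. *pdia4* was at 74.8 CPM in the 21dpS starved library of replicate 2, against 26.1 to 33.2 CPM in the other starved fish. In the 21dpS starved library of replicate 3, *fkbp4* was highest of its group at 30.2 CPM and *xbp1* lowest at 44.6 CPM. *cct7* was lowest at 33.2 CPM in the 21dpS fed library of replicate 3.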

How the results depend on the processing

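The number of members called at 3dpS was 0, and 1 with DESeq2, with no filter on low counts, with all 23 libraries in 1 fit and with the mean of the 3 fed groups as the reference. With 1 library left out it was 0 to 1. At 21dpS it was 0, and 1 with the mean of the fed groups as the reference, and at 3dpR it was 0 throughout. The number of all genes called at 3dpS was 21, against 108 with DESeq2, 172 with no filter, 32 with at least 10 counts, 69 in 1 fit of all libraries and 109 with the mean of the fed groups, and 1 to 116 with 1 library left out (116 without the fed library of replicate 1). At 21dpS it was 90, against 210 with DESeq2, 227 with no filter, 173 in 1 fit and 696 with the mean of the fed groups, and 35 to 137 with 1 library left out. At 3dpR it was 1, against 11 with DESeq2, 21 with no filter, 2 with at least 10 counts and 4 with the mean of the fed groups, and 0 to 6 with 1 library left out. The cause of these shifts was not tested.

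Log2 fold changes that changed sign were all uncalled. With the mean of the fed groups as the reference, *hspa5* was at -0.12 and *hsp90b1* at -0.047 at 3dpS, *pdia4* at 0.067 at 21dpS, and *hspa5* at 0.19, *hsp90b1* at 0.32 and *pdia4* at 0.18 at 3dpR. At 3dpR *hspa5* was also at 0.041 with DESeq2, 0.0088 with RLE factors, 0.068 with no filter, 0.0088 without the 100 most abundant genes and 0.033 in 1 fit of all libraries. *p4hb* at 3dpS was at 0.019 with at least 10 counts. With 1 library left out, the 3dpS log2 fold change of *hsp90b1* was between -0.11 and 0.74, its 21dpS value between -0.16 and 0.41 and its 3dpR value between -0.28 and 0.041. For *hspa5* the 21dpS value lay between -0.28 and 0.67 and the 3dpR value between -0.43 and 0.22, and *p4hb* at 3dpS lay between -0.12 and 0.098. Some 3dpS values kept their sign but moved widely, between 0.049 and 1.99 for *hspa5* and between 0.20 and 1.92 for *pdia4*. They lay between 0.93 and 2.09 for *fkbp4*, 0.41 and 0.71 for *hspa8* ENSDARG00000068992, and 0.52 and 0.92 for *cct7*. *ppib* at 21dpS was called with the mean of the fed groups (-0.80, edgeR adjusted p = 0.0096), as was HSPA4 ENSDARG00000004754 (1.43, edgeR adjusted p = 0.023). Against 21dpS fed fish alone that HSPA4 identifier was at 0.33 (edgeR adjusted p = 0.64). The mean of the fed groups includes fed fish of other ages and called 15% of all genes at 21dpS. *hsp90ab1* is itself among the 100 most abundant genes and has no value without them.

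Starved and fed tanks share only a number, with correlations of the deviations of like-numbered tanks of -0.03 at 3dpS, 0.21 at 21dpS and -0.22 at 3dpR. With tank number as a replicate block, *hsp90ab1* was at 0.99 at 3dpS (edgeR adjusted p = 0.090), *hspa5* at 21dpS was at -7.4e-05, and 0 members were called in any comparison, those between fed groups included. Low counts limit the rest: *hspd1*, *hspe1*, *dnajb1b* and the second *hspa8* identifier are near the smallest detectable count, and 5 members carry all tests. Whether depth or the strand counted lies behind the low counts was not tested.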
